A study of Mus musculus with 4 samples.

Results

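The genes described here are the ligands and receptors of axon guidance: semaphorins of classes 3 to 7 with their plexin and neuropilin receptors, ephrins with the Eph receptors, Slits with the Robo receptors, and netrins with Dcc and the Unc5 receptors. They were picked by patterns of gene symbols. Of 14718 gene symbols in the deposited table, 65 belonged to these families, 34 ligands and 31 receptors. At 7 days post injury (dpi) 64 of 14125 symbols were members, and at 21 dpi 48 of 11472. Both time points listed 47 of them. Sema3b, Sema3d, Sema3e, Sema4a, Sema6a, Plxnb3, Nrp1, Efna3, Efna4, Epha2, Epha3, Epha5, Epha6, Robo1, Robo2, Ntn3 and Unc5d were listed at 7 dpi only, and Sema4d at 21 dpi only. No member was listed at 0 in any group. Other genes of these families, such as Plxnb2, Epha1, Robo3 and Ntn5, were not analysed here.

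RNA was sequenced from the lesion segment of the thoracic spinal cord of adult male mice after a 50 kdyne contusion. The 4 groups were ApoE3 mice at 7 dpi, ApoE4 mice at 7 dpi, ApoE3 mice at 21 dpi and ApoE4 mice at 21 dpi. In all of them the mouse Apoe coding region was replaced by a human isoform, and no group was uninjured. Several young adult mice per group were combined into 1 value per gene, given as FPKM (fragments scaled to transcript length and to library size). The values therefore hold no spread between mice, no test was made from them, and no difference below has a replicate check here; the authors' own test columns were not used. The authors cut every library to the same number of reads, but the deposited values give no read count for any gene.

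Differences are given as the log2 ratio of FPKM plus 1, ApoE3 to ApoE4, so a negative value means a lower level in ApoE3. Adding 1 understates the difference of genes with low FPKM. A gene is counted as higher or lower where it passed 1.3-fold on this scale (0.38 in log2), which is a size and not a test. The values were assigned to the genotypes by the name of each comparison, which puts ApoE3 before ApoE4. The numbered sample columns of the same table put ApoE4 first, and under that reading every direction between genotypes given here would be the opposite. At 21 dpi all genes together were shifted toward ApoE4, with a median log2 ratio of -0.42, so directions at 21 dpi are as listed unless called centred, and many of them are no larger than that shift.

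Guidance cues steer growing axons by attraction or repulsion, acting through receptors that rearrange the actin and microtubule cytoskeleton of the growth cone. In the adult spinal cord many of them are kept by neurons, glia, blood vessels and meningeal cells, and several are known as inhibitors of axon growth around lesions. The same families also act in blood vessel growth, myelin formation and immune cell movement, so their RNA in whole tissue does not come from axons alone.

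The segments carried the markers of spinal cord. Mbp of oligodendrocytes was at 120571 FPKM in ApoE3 against 127575 in ApoE4 at 7 dpi, and at 201348 and 278678 at 21 dpi. Gfap of astrocytes was at 12395, 12386, 8201 and 15313 FPKM in the same order of groups, and Snap25 of neurons at 3366, 2545, 5336 and 7812. Slc6a5, the transporter of glycinergic neurons, was present in every group, at 254, 188, 226 and 368 FPKM.

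Members spanned a wide range of levels. Their median was 22.7 FPKM in ApoE3 against 23.8 in ApoE4 at 7 dpi, where the medians of all listed genes were 33.0 and 33.0. At 21 dpi the medians of members were 24.3 and 28.4 FPKM, beside 26.9 and 36.8 for all genes. The lowest value was 0.757 FPKM, for Efna4 in ApoE3 at 7 dpi, and the highest 1034 FPKM, for Sema6d in the same group. Together the members made up 0.270% of the summed FPKM in ApoE3 against 0.259% in ApoE4 at 7 dpi, and 0.240% and 0.221% at 21 dpi.

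**Figure D1:**
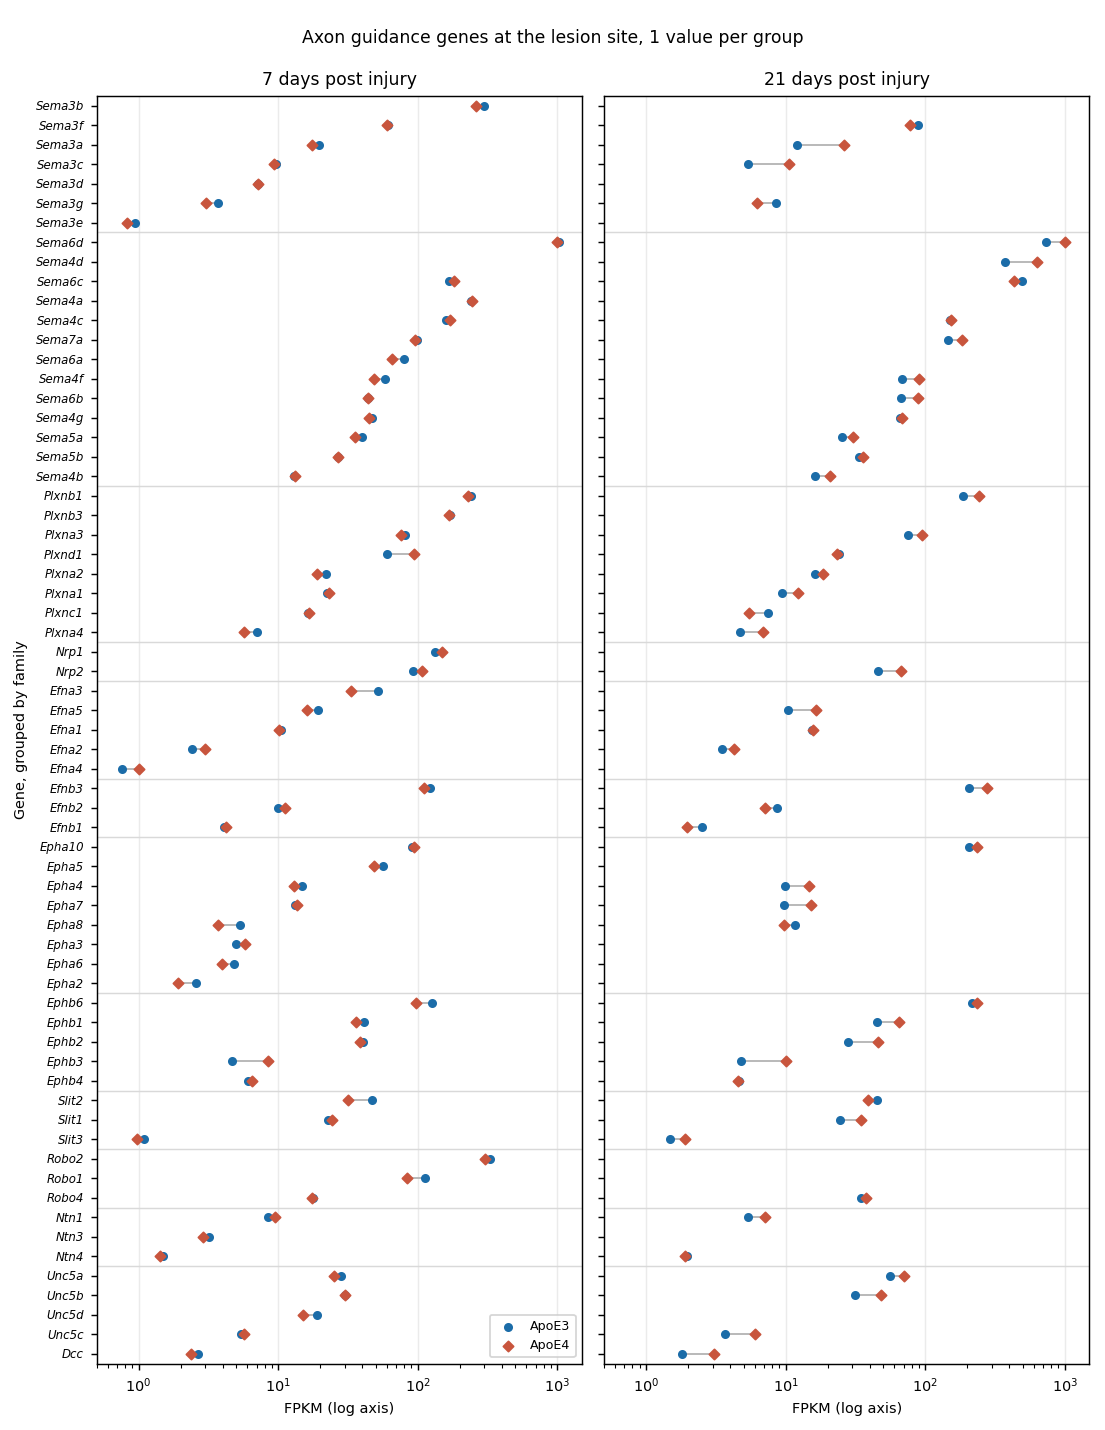
FPKM on a log axis of each of the 65 genes at 7 and 21 dpi, with ApoE3 as circles and ApoE4 as diamonds, 1 value per group, grouped by family and ordered by mean level. Most pairs at 7 dpi nearly coincide, Plxnd1, Ephb3, Efna3 and Slit2 are apart, and Sema6d is the highest in its family at up to 1034 FPKM.

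Among the class 3 semaphorins, secreted ligands that bind neuropilin and plexin complexes, Sema3b was the most abundant. It was at 296 FPKM in ApoE3 against 261 in ApoE4 at 7 dpi. Sema3f, a repellent that acts through Nrp2, stood at 60.8 and 60.1 FPKM at 7 dpi and at 89.3 and 78.2 at 21 dpi. The genotypes were nearly level for both genes at 7 dpi. Sema3a, the classic repellent that collapses growth cones through Nrp1, had 19.5 FPKM in ApoE3 against 17.5 in ApoE4 at 7 dpi, and 11.99 and 26.2 at 21 dpi. Sema3c had 9.62 and 9.27 FPKM at 7 dpi and 5.34 and 10.5 at 21 dpi. Both were about level between genotypes at 7 dpi and lower in ApoE3 at 21 dpi. Sema3g, which is known from blood vessels, went the other way at 21 dpi, with 8.52 FPKM in ApoE3 against 6.21 in ApoE4, after 3.73 and 3.02 at 7 dpi. Sema3d and Sema3e were listed at 7 dpi only, Sema3e at under 1 FPKM in both genotypes.

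The semaphorins of classes 4 to 7 are membrane-bound or membrane-anchored, apart from shed forms, and held the most abundant members. Sema6d, a transmembrane ligand of Plxna1, was at 1034 FPKM in ApoE3 against 997 in ApoE4 at 7 dpi, and at 730.2 and 999 at 21 dpi. Sema4d, made by oligodendrocytes and immune cells and read by Plxnb1, was at 375 and 631 FPKM at 21 dpi. Its level was lower in ApoE3. Sema6c stood at 167 and 183 FPKM at 7 dpi and 490.0 and 432 at 21 dpi, the largest gain over time in ApoE3 among the 47 members listed at both times. Sema4f had 58.2 and 48.7 FPKM at 7 dpi and 67.7 and 90.5 at 21 dpi. Sema6b had 44 and 43.8 FPKM at 7 dpi and 67.4 and 89.3 at 21 dpi. The last pair lay within 1.3-fold at 7 dpi and were lower in ApoE3 at 21 dpi, by about the shift of all genes.

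Plexins are the signalling receptors of semaphorins and switch off small GTPases of the Ras and Rap families. Plxnb1, the receptor of Sema4d, was the most abundant, with 239 FPKM in ApoE3 against 229 in ApoE4 at 7 dpi and 187 and 243 at 21 dpi. Plxnb3 had 169 and 168 FPKM at 7 dpi. Neither differed past 1.3-fold between genotypes where listed. Plxnd1, a receptor best known from endothelial cells and the response to Sema3e, was at 60.6 FPKM in ApoE3 against 93.5 in ApoE4 at 7 dpi, and at 24.2 and 23.2 at 21 dpi. It was thus lower in ApoE3 at the earlier time and nearly level at the later. Plxnc1, the receptor of Sema7a that is found on myeloid cells, was level at 7 dpi, with 16.5 and 16.7 FPKM, and higher in ApoE3 at 21 dpi, with 7.44 and 5.43. Plxna1 had 22.5 and 23.2 FPKM at 7 dpi and 9.43 and 12.2 at 21 dpi. Plxna4, which transmits the Sema3a signal, had 7.05 and 5.68 FPKM at 7 dpi and 4.71 and 6.83 at 21 dpi. Neuropilins are the ligand-binding partners of plexins. Nrp1, the Sema3a receptor that also binds VEGF, was at 133 and 148 FPKM at 7 dpi. Nrp2 was at 92.7 and 106 FPKM at 7 dpi and 45.9 and 67.3 at 21 dpi, lower at the later time in both genotypes.

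A ephrins are held at the membrane by a lipid anchor and mostly bind EphA receptors. Efna3 was at 51.8 FPKM in ApoE3 against 33.3 in ApoE4 at 7 dpi, the largest difference toward ApoE3 at that time. Efna5, a repellent in topographic mapping, had 19.1 and 16.03 FPKM at 7 dpi and 10.5 and 16.6 at 21 dpi. B ephrins cross the membrane and can signal back into the cell that carries them. Efnb3, the midline barrier of the spinal cord and a myelin inhibitor of axon growth, had 122 and 111 FPKM at 7 dpi and 206 and 278 at 21 dpi. Efnb2, of arteries and reactive astrocytes, had 10.0 and 11.2 FPKM at 7 dpi and 8.66 and 7.10 at 21 dpi. Efnb1 had 4.10 and 4.26 FPKM at 7 dpi and 2.51 and 1.97 at 21 dpi. Efnb3 was thus far above the other B ephrins in every group and higher at 21 dpi, while Efnb1 was lower at 21 dpi in both genotypes and Efnb2 in ApoE4.

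Eph receptors are tyrosine kinases, although Epha10 and Ephb6 lack kinase activity, and these kinase-dead receptors were the most abundant of their families. Epha10 stood at 90.4 FPKM in ApoE3 against 93.2 in ApoE4 at 7 dpi and 204 and 233 at 21 dpi. Ephb6 stood at 126 and 97.3 FPKM at 7 dpi and 216 and 237 at 21 dpi. Epha5 was at 56.2 and 48.4 FPKM at 7 dpi. Epha4, the receptor of Efnb3 in corticospinal axons, had far less, 14.8 and 13.0 FPKM at 7 dpi and 9.85 and 14.8 at 21 dpi. Epha7 had 13.3 and 13.7 FPKM at 7 dpi and 9.74 and 15.3 at 21 dpi. Both were lower in ApoE3 at 21 dpi only. Epha8 had 5.32 FPKM in ApoE3 against 3.73 in ApoE4 at 7 dpi and 11.6 and 9.77 at 21 dpi, higher in ApoE3 at 7 dpi. Among the EphB receptors, Ephb1 had 41.2 and 36.0 FPKM at 7 dpi and 44.8 and 65.1 at 21 dpi. Ephb2 had 40.2 and 38.6 FPKM at 7 dpi and 27.9 and 45.9 at 21 dpi. These receptors of B ephrins were about level at 7 dpi and lower in ApoE3 at 21 dpi. Ephb3 had 4.70 FPKM in ApoE3 against 8.42 in ApoE4 at 7 dpi, and 4.81 and 10.0 at 21 dpi, the lower level being in ApoE3 both times.

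Slits are secreted repellents that keep axons from crossing the midline, and Robos are their receptors. Slit2 was at 46.9 FPKM in ApoE3 against 31.5 in ApoE4 at 7 dpi and 45.5 and 39.0 at 21 dpi. Slit1 was at 22.8 and 24.4 FPKM at 7 dpi and 24.5 and 34.9 at 21 dpi. Robo2 had 329 and 305 FPKM and Robo1 113 and 83.6 at 7 dpi. Slit2 and Robo1 were thus both higher in ApoE3 at 7 dpi, whereas Slit1 and Robo2 were close to level. Robo4, a receptor of endothelial cells, was the only Robo listed at both times, at 17.6 and 17.4 FPKM at 7 dpi and 34.8 and 37.7 at 21 dpi.

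Netrins attract axons through Dcc and repel them through Unc5 receptors. The netrins were scarce, Ntn1 with 8.42 and 9.46 FPKM at 7 dpi and 5.39 and 7.15 at 21 dpi, and Ntn3 with 3.22 and 2.88 at 7 dpi. Dcc was scarce too, with 2.67 and 2.37 FPKM at 7 dpi and 1.81 and 3.07 at 21 dpi. The repellent receptor Unc5a was well above it, at 28.1 and 25.3 FPKM at 7 dpi and 56.2 and 70.4 at 21 dpi. Unc5b stood at 30.1 and 30.2 FPKM at 7 dpi and 31.3 and 48.4 at 21 dpi. Unc5c stood at 5.39 and 5.66 FPKM at 7 dpi and 3.65 and 5.998 at 21 dpi. Dcc, Unc5b and Unc5c were lower in ApoE3 at 21 dpi, and Unc5a was higher at 21 than at 7 dpi in both genotypes.

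The promoters of the members that stood furthest apart between genotypes and have 1 start in the RefSeq table are printed to show the sequence in front of them: Ephb3, Plxnd1 and Slit2 for 7 dpi and Sema3a for 21 dpi. They are the 250 bases before the start in RefSeq (GRCm38.p6), read 5′ to 3′ on the strand of the gene: Ephb3 at chr16:21204545-21204794 on the + strand, Plxnd1 at chr6:115995006-115995255 on the - strand, Slit2 at chr5:47982905-47983154 on the + strand and Sema3a at chr5:13396534-13396783 on the + strand. Capitals mark the GC box (GGGCGG) and the TATA box (TATAAA), each looked for on both strands.
Ephb3: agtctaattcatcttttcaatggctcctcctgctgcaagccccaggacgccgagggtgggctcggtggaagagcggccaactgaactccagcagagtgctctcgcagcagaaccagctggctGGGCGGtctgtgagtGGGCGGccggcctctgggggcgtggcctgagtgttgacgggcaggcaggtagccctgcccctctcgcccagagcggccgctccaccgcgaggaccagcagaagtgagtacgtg
Plxnd1: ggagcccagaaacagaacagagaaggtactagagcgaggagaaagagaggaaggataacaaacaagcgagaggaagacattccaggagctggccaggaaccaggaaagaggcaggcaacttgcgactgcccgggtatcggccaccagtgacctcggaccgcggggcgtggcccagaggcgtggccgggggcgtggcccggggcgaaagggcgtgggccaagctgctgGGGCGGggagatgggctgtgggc
Slit2: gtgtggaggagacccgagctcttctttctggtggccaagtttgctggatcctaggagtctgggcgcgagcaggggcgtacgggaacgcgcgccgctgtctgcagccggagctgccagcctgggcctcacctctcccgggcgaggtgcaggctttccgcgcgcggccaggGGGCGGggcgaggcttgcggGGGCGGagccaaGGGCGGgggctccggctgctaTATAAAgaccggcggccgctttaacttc
Sema3a: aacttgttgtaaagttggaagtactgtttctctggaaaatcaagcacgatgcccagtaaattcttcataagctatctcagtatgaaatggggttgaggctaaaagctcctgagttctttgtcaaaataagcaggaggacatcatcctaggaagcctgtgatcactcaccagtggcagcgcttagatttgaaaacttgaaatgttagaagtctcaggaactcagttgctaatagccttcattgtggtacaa
Ephb3 had 2 GC boxes, Plxnd1 1, and Slit2 3 with 1 TATA box, whereas Sema3a held neither motif in this window. CG pairs numbered 16 in Ephb3, 16 in Plxnd1, 25 in Slit2 and 2 in Sema3a. Of all 32851 RefSeq promoters of the same length, 32.7% held the GC box and 12.4% the TATA box, and the median number of CG pairs was 6. RefSeq had promoters for 55 of the 65 members, 70 in all, of which 49 held the GC box and 2 the TATA box, with a median of 16 CG pairs. A match of letters is a description, and binding was not measured.

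Between genotypes at 7 dpi, most members were level. Of 64 members, 4 were higher in ApoE3 and 2 higher in ApoE4, while 58 lay within 1.3-fold. The same size was passed by 3.78% of all 14127 values toward ApoE3 and by 4.76% toward ApoE4, so the members' 6.25% and 3.13% were near the background. The members' median log2 ratio was 0.05 and that of all genes 0.00. The 4 higher in ApoE3 were Efna3 (log2 ratio 0.62), Slit2 (0.56), Robo1 (0.43) and Epha8 (0.42), and the 2 higher in ApoE4 were Ephb3 (-0.72) and Plxnd1 (-0.62). Just inside the limit were Ephb6 at 0.37 and Unc5d at 0.31. Subtracting the median of genes with a mean of at least 1 FPKM (centring) left these counts at 4 and 2, where all genes gave 3.76% and 4.82%.

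At 21 dpi the whole table was shifted. The median log2 ratio of all 11474 values was -0.42, and 58.9% of them were higher in ApoE4 past 1.3-fold, against 2.02% higher in ApoE3. The summed FPKM was 1513867 in ApoE3 and 2050622 in ApoE4. Against that background, 19 of 48 members (39.6%) were higher in ApoE4 and 2 (4.17%) in ApoE3, the median over members being -0.33. Relative to the shift, the members' median was 0.09, 14 were higher in ApoE3 and 3 higher in ApoE4, where 7.47% and 8.07% of all genes were. The direction of the list thus depends on the centring, and which scale is right was not tested.

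The 3 members lower in ApoE3 by over 1.3-fold beyond the shift were Sema3a (log2 ratio -1.07, -0.64 relative to all genes), Ephb3 (-0.92 and -0.50) and Sema3c (-0.86 and -0.44). Sema4d, at -0.75 and -0.32, and Ephb2, at -0.70 and -0.28, came next and lay within 1.3-fold of the shift. The other 14 of the 19 also lay within it: Efna5 (-0.62), Unc5b (-0.61), Epha7 (-0.60), Unc5c (-0.59), Nrp2 (-0.54), Epha4 (-0.54), Dcc (-0.54), Ephb1 (-0.53), Slit1 (-0.50), Plxna4 (-0.46), Sema6d (-0.45), Efnb3 (-0.43), Sema4f (-0.41) and Sema6b (-0.40). Centring turned the sign of Sema4f to 0.01 and of Sema6b to 0.02. Sema3g (0.40, 0.82 relative to all genes) and Plxnc1 (0.39 and 0.82) were higher in ApoE3 on both scales. On the centred scale alone, the B ephrins Efnb2 (0.68) and Efnb1 (0.66), Epha8 (0.65), Slit2 (0.64), Sema3f (0.61), Sema6c (0.60) and Plxnd1 (0.48) were also higher in ApoE3. Ntn4 (0.45), Ephb4 (0.44), Efna1 (0.41), Sema4c (0.40) and Sema4g (0.38) complete those 14. Plxnb1, at -0.38 as listed, lay just within 1.3-fold. Centred medians were 0.18 over 26 ligands and 0.07 over 22 receptors. Ephb3 was the only member past 1.3-fold in the same direction at both times on the listed scale, whereas 3 were with the 21 dpi values centred: Ephb3, Slit2 and Epha8. Of all 10876 genes listed once at both times, 2.65% passed in the same direction at both on the listed scale and 1.33% with 21 dpi centred.

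**Figure D2:**
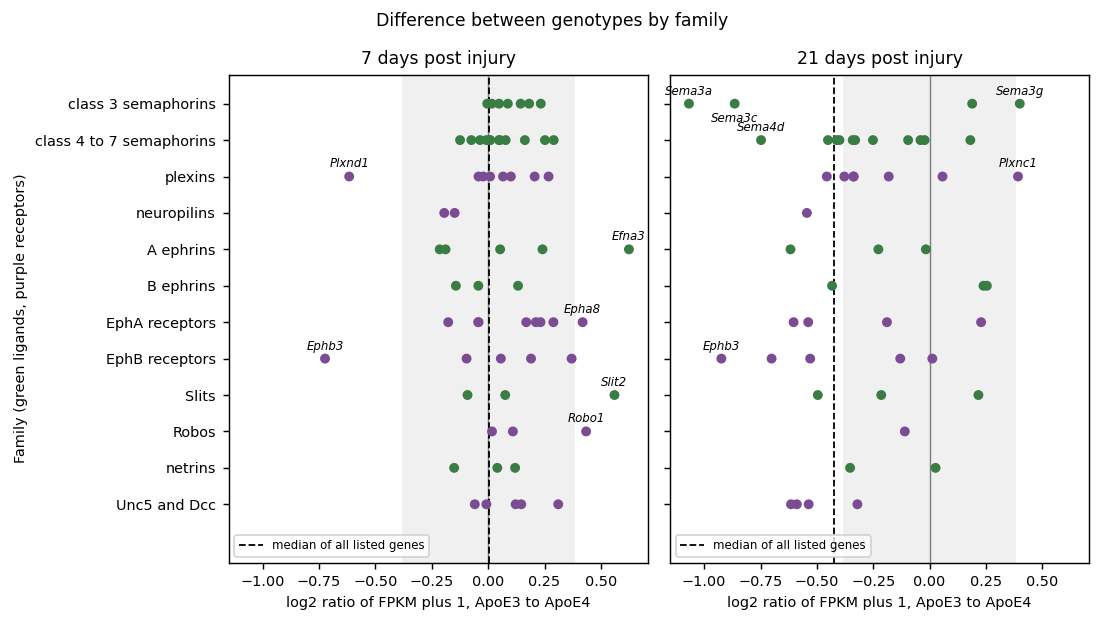
Log2 ratio of FPKM plus 1, ApoE3 to ApoE4, for each member by family at 7 and 21 dpi; green points are ligands, purple points receptors, the grey band is within 1.3-fold and the dashed line the median of all listed genes. At 21 dpi the points lie around the median of -0.42, with Sema3a and Ephb3 furthest to the left of it.

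Levels at 21 dpi were then set beside those at 7 dpi within each genotype, for the 47 members and 10876 genes listed once at both times. The time points stand in separate comparisons of the table, and the sources used here do not state that they were normalized together. These ratios use the same 4 values as the ratios between genotypes, so they are no separate evidence. In ApoE3, 14 of 47 members were higher at 21 dpi and 18 lower, where 31.3% and 23.6% of all genes were. In ApoE4, 21 were higher and 7 lower, where 59.0% and 10.9% of all genes were. The median log2 change of all genes was 0.09 in ApoE3 and 0.53 in ApoE4, and that of members -0.04 and 0.30. Relative to those medians, 13 members were higher and 20 lower in ApoE3 (26.6% and 27.7% of all genes), and 9 higher and 15 lower in ApoE4 (26.1% and 28.6% of all genes).

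The largest losses over time were mostly of semaphorin receptors. Plxnd1 had a log2 change of -1.29 in ApoE3 and -1.96 in ApoE4, Plxnc1 of -1.05 and -1.46, Plxna1 of -1.17 and -0.88, and Nrp2 of -1.0 and -0.65. All 4 were lower at 21 dpi in both genotypes on either scale. Efnb1 was lower too, with -0.54 in ApoE3 and -0.82 in ApoE4. Efna5 was lower in ApoE3 (-0.81) and level in ApoE4 (0.05), but relative to all genes it was lower in both (-0.90 and -0.48). Among the gains were Sema6c at 1.54 in ApoE3 and 1.24 in ApoE4, Epha10 at 1.17 and 1.31, Unc5a at 0.97 and 1.44, and Epha8 at 0.996 and 1.19. Efnb3 had 0.75 and 1.31, Ephb6 0.77 and 1.27, and Sema3g 1.01 and 0.84. On the centred scale the gains in ApoE4 were 0.71 for Sema6c, 0.79 for Epha10, 0.91 for Unc5a and 0.66 for Epha8. Those of Efnb3, Ephb6 and Sema3g were 0.79, 0.75 and 0.32, and only Sema3g lay within 1.3-fold. In ApoE3 each of these gains stayed past 1.3-fold on that scale. Sema3a alone passed 1.3-fold in opposite directions, -0.66 in ApoE3 and 0.56 in ApoE4, but relative to all genes its change in ApoE4 was 0.03. Relative to all genes, 13 of 47 members were lower and 9 higher at 21 dpi in both genotypes, beside 21.6% and 19.7% of all genes. As listed, 5 were lower and 13 higher in both genotypes. The shares of all genes in both genotypes were not counted on that scale, so nothing is read from these counts.

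**Figure D3:**
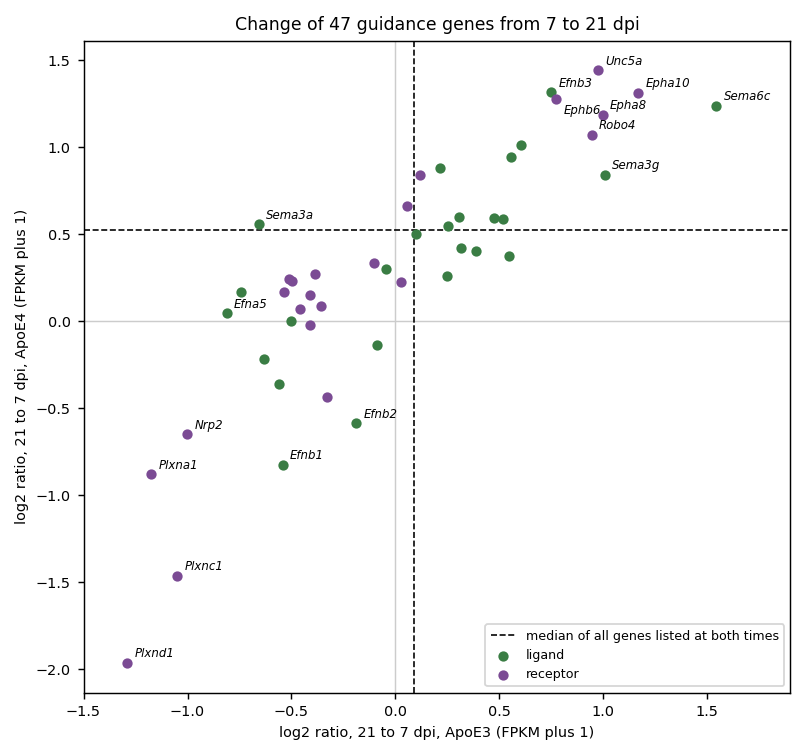
Log2 ratio of FPKM plus 1, 21 to 7 dpi, in ApoE3 (horizontal) and ApoE4 (vertical) for the 47 members listed at both times, ligands in green and receptors in purple, with dashed lines at the medians of all genes (0.09 and 0.53). Plxnd1, Plxnc1, Plxna1 and Nrp2 lie low on both axes and Sema6c, Epha10 and Unc5a high on both.

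Markers of the cells in the segment moved over the same interval. Of the neuron list, 12 genes were listed at both times, and their summed FPKM went from 9983 in ApoE3 against 7801 in ApoE4 at 7 dpi to 12344 and 18684 at 21 dpi. The 5 macrophage markers listed at both times, led by Lyz2, went from 5746 and 7573 FPKM to 291 and 570.2. The 9 markers of fibroblasts and meninges, led by Igf2, went from 1865 and 1869 FPKM to 257 and 173, and Col1a1 from 212 and 270.0 to 2.44 and 2.27. The 8 endothelial markers went from 387 and 362 FPKM to 467 and 581, with Slco1a4 the most abundant of them. The 4 microglia markers went from 429 and 412 FPKM to 279 and 477, and none of these lists had a gene at 0, although the microglia genes P2ry12 and Cx3cr1 were not listed. These sums are as listed, where all genes had a median log2 change of 0.09 in ApoE3 and 0.53 in ApoE4. Relative to those medians, neuron markers had median changes of 0.60 in ApoE3 and 0.75 in ApoE4. Macrophage markers had -4.12 and -3.50, and fibroblast and meninges markers -2.11 and -3.59. Endothelial markers had 0.07 and -0.0005, and microglia markers -0.61 and -0.51. In whole tissue, fewer cells of a type and less RNA per cell cannot be told apart. The part of these cells in the members' changes was not tested.

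Between genotypes at 7 dpi, the 14 neuron markers had a median log2 ratio of 0.26, with 4 higher in ApoE3, and a summed level of 10880.3 FPKM in ApoE3 and 8548 in ApoE4, led by Map2. Macrophage markers went the other way, with a median of -0.30 over 9 genes, 3 of them higher in ApoE4, and sums of 7087 and 9323 FPKM. The fibroblast and meninges list had a median of -0.30 over 9 genes, with 1 higher in ApoE3 and 2 in ApoE4, and sums of 1865 and 1869 FPKM. Beside these counts, 3.78% of all genes were higher in ApoE3 and 4.76% in ApoE4. The endothelial list was level, with a median of -0.02 over 10 genes, none past 1.3-fold, and sums of 875 and 816 FPKM, led by Ly6c1. These values stand beside Robo1, Slit2 and Efna3, higher in ApoE3, and Plxnd1 and Ephb3, higher in ApoE4, and their part in those differences was not tested. Medians of the other lists at 7 dpi lay between -0.18 for oligodendrocyte precursors and 0.23 for skeletal muscle, and Pdgfra was counted in both the precursor and the fibroblast lists.

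At 21 dpi lists of tissues outside the cord stood apart. Of all genes, 2.02% were higher in ApoE3 and 58.9% higher in ApoE4 at that time. Of the Schwann cell list, 8 of 13 genes were higher in ApoE3 and 1 in ApoE4. Of the sensory ganglion list, 10 of 14 were higher in ApoE3 and 1 in ApoE4, with sums of 943 and 1061 FPKM, led by Calca. Avil was at 39.1 and 1.195 FPKM and Scn10a at 20.1 and 0.153, and Trpv1 and Mrgprd were listed at 0 in ApoE4. All 10 listed skeletal muscle genes were higher in ApoE4, with sums of 36.0 FPKM in ApoE3 and 741 in ApoE4, led by Tnnt3, and Myh4 was listed at 0 in ApoE3. All 8 listed liver genes were higher in ApoE4 too, with sums of 11.1 and 135 FPKM, led by Apoa2. Whether RNA of roots, ganglia, muscle or liver had a part in the members' values at 21 dpi was not tested.

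Lists of cells within the cord followed the shift more closely at 21 dpi. Centred medians were -0.08 for 12 neuron markers, -0.12 for 8 oligodendrocyte markers, -0.08 for 6 precursor markers, -0.24 for 9 astrocyte markers and -0.24 for 4 microglia markers. The endothelial list had 0.11 over 8 genes, the pericyte and smooth muscle list 0.24 over 7, and the ependymal list 0.79 over 5. Macrophage markers were lower in ApoE3 beyond the shift, with a centred median of -0.58 over 5 genes, and fibroblast and meninges markers higher, with 0.81 over 9 genes. Dcn led the fibroblast difference, at 61.9 FPKM in ApoE3 against 9.37 in ApoE4. These stand beside the centred values of Efnb1, Efnb2, Sema3g and Plxnd1, which are higher in ApoE3, and their part in them was not tested.

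**Figure D4:**
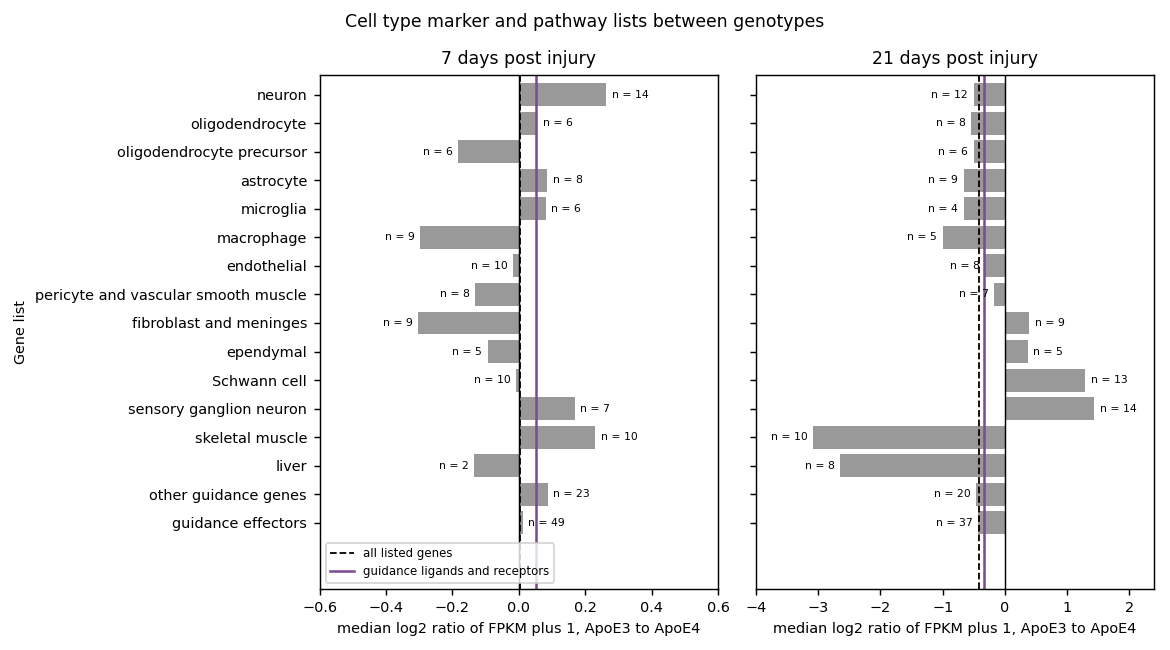
Median log2 ratio of FPKM plus 1, ApoE3 to ApoE4, of 14 marker lists and 2 pathway lists at 7 and 21 dpi, with the number of listed genes; the axes differ, the dashed line is the median of all listed genes and the purple line that of the guidance ligands and receptors. At 21 dpi the skeletal muscle and liver lists lie far to the left (-3.09 and -2.64), and the Schwann cell and sensory ganglion lists to the right (1.29 and 1.43).

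The wider pathway was described by 2 further lists. Other guidance ligands, receptors and coreceptors numbered 25, of which 23 were listed at 7 dpi. None was higher in ApoE3 past 1.3-fold and 1 was higher in ApoE4, Cxcr4, the chemokine receptor of immune and progenitor cells, at 81.5 and 107 FPKM, beside 3.78% and 4.76% of all genes. The median over those 23 was 0.09 in log2. Nrcam, a cell adhesion molecule of axons and nodes of Ranvier, was the most abundant in every group, at 2609, 2787, 2372 and 4099 FPKM. At 21 dpi 11 of 20 were higher in ApoE4 and none in ApoE3, near the 58.9% and 2.02% of all genes, with a median of -0.46 and a centred median of -0.04, and none passed 1.3-fold after centring. The furthest as listed were Nrcam (-0.79), Chl1 (-0.73), its close relative, and Met (-0.69), the hepatocyte growth factor receptor.

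Over time, 2 of 20 were higher and 9 lower at 21 dpi in ApoE3, and 7 higher and 3 lower in ApoE4, where the shares of all genes were 31.3%, 23.6%, 59.0% and 10.9%. After centring, 2 were higher and 13 lower in ApoE3, and 1 higher and 9 lower in ApoE4. The shares of all genes were then 26.6%, 27.7%, 26.1% and 28.6%. The direction of this list in ApoE4 thus depends on the centring. As listed, Cxcr4 was lowest relative to 7 dpi, with log2 changes of -2.01 in ApoE3 and -2.13 in ApoE4, then Flrt2, a ligand of Unc5 receptors, with -1.27 and -0.72, and Itgb1, an integrin, with -1.01 and -0.79. Gains were led by Shh, an attractant of commissural axons, with 0.57 and 1.55, and Dscaml1 with 0.60 and 0.83. Dscam, a netrin receptor, had 0.85 in ApoE4.

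The cytoplasmic effectors of guidance receptors numbered 55, of which 49 were listed at 7 dpi, with a median log2 ratio of 0.01. Only Sh3bp1, a Rac-inactivating protein in plexin signalling, passed 1.3-fold, higher in ApoE4 at 81.8 and 109 FPKM, where 3.78% of all genes were higher in ApoE3 and 4.76% in ApoE4. Cdc42, the small GTPase, was the most abundant at 7 dpi with 1121 and 1164 FPKM. At 21 dpi 22 of 37 were higher in ApoE4 and none in ApoE3, again near the 58.9% and 2.02% of all genes, with a median of -0.44 and a centred median of -0.01. After centring, 3 were lower and 2 higher in ApoE3, beside 8.07% and 7.47% of all genes. The kinases Abl2 (-0.82) and Pak3 (-0.40) were among the lower. Mical2 (0.52), an actin oxidase, and Sh3bp1 (0.42) were higher in ApoE3 on that scale. From 7 to 21 dpi, 8 of 36 were higher and 9 lower in ApoE3, beside 31.3% and 23.6% of all genes, and 14 higher and 2 lower in ApoE4, beside 59.0% and 10.9%. With those ratios centred, 7 were higher and 13 lower in ApoE3, beside 26.6% and 27.7% of all genes. In ApoE4 6 were higher and 14 lower, beside 26.1% and 28.6%, so the direction there turned with the centring. As listed in log2, Cdk5, a neuronal kinase, gained 0.95 in ApoE3 and 1.39 in ApoE4, Rnd1 0.43 and 1.25, and Dpysl2, the collapsin response mediator, 0.55 and 1.24. Mical2 had 0.87 and Dpysl4 0.70 in ApoE3. The tyrosine kinase Fes, which acts below plexins, had -1.32 and -0.88. Pak2 had -0.87 in ApoE3, and Vasp -0.40 in ApoE4.

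The sequencing kit does not mark the strand of a read, and in GENCODE vM21 13 of the 65 members have an exon that overlaps an exon of a gene on the other strand. Among those named above with a difference past 1.3-fold are Efna3, with 344 shared bases, Plxna1, with 970, Plxna4, Epha10, Ephb1, Unc5a and Unc5c. Reads of such a gene and of its partner cannot be told apart in the shared bases. Hk3, the partner of Unc5a with 34 shared bases, is the only partner listed in the table.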

How the data were processed

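Male mice carrying human ApoE3 or ApoE4 were compared at 7 and 21 dpi. The authors removed reads to equal numbers per library, aligned them and deposited FPKM plus 1 per gene and group; the submitters' processing notes name STAR 2.5.4b, Bowtie2 2.1.10, SAMtools 0.1.7 and Cuffdiff 1.3.0. In the study's methods, 1 replicate of a group that is not named had a lower alignment rate. The genome build is not given in the sources used here. The authors' fold changes, p-values and q-values, and a list of differentially expressed genes, were not used.

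FPKM was the deposited value minus 1, and log2 ratios used a pseudocount of 1. Members matched symbol patterns, and the members and lists were chosen with earlier results of these data known. Full values are given for members past 1.3-fold between genotypes, for the 2 with the highest mean FPKM in each family over the groups that list them, and for the 5 largest changes in each direction over time. Of each pathway list, up to 3 of the most changed genes per direction and the most abundant are named, and some genes that rank among these were left out. The 3 symbols on 2 lines of a time point were left out over time. Alternatives were a pseudocount of 0.1, a mean FPKM of at least 1, centring, folds of 1.5 and 2, and reading the genotypes by column number. Python 3.11.15, numpy 2.4.6, pandas 2.3.3 and matplotlib 3.10.9 were used, and the counting was tested on simulated data.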

Additional observations from a re-analysis of the deposited data

Results flagged for a closer look

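Plxnd1 passed 1.3-fold in opposite directions between genotypes at the 2 time points once the median of all genes was subtracted. Its log2 ratio of ApoE3 to ApoE4 relative to all genes was -0.62 at 7 dpi and 0.48 at 21 dpi. Without centring, the value at 21 dpi was 0.06. Each group has 1 value, so the difference between time points was not tested.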

How the results depend on the processing

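With 1 value per group, no setting can show whether a difference exceeds the spread between mice. A pseudocount of 0.1 and a minimum mean of 1 FPKM were run for members on the listed scale only, where they kept each count within 1.5 times its value and moved no median by over 0.1. A pseudocount of 0.1 turned no log2 ratio between genotypes of a member and took 3 past 1.3-fold: Epha2 at 7 dpi, from 0.289 to 0.401, and at 21 dpi Ntn1, from -0.353 to -0.403, and Plxnb1, from -0.3783 to -0.3799. Centring turned the members' median at 21 dpi from -0.33 to 0.0896, and changed those higher in ApoE3 from 2 to 14 and in ApoE4 from 19 to 3. Members with a log2 ratio above 0 at 21 dpi went from 11 to 31 of 48, where the share of all genes went from 6.16% to 50.0%. Among the 19 higher in ApoE4 as listed, centring turned Sema4f to 0.0108 and Sema6b to 0.0234, and took 14 others within 1.3-fold. Efna1 (-0.0166 to 0.407), Sema4c (-0.0223 to 0.401) and Sema4g (-0.0405 to 0.383) turned and passed 1.3-fold. Over time in ApoE4 centring changed those higher at 21 dpi from 21 to 9 and those lower from 7 to 15. These moves follow from the subtracted median.

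A fold of 1.5 left 1 member higher in ApoE3 and 2 in ApoE4 at 7 dpi (1.22% and 1.51% of all genes), and at 21 dpi 0 higher in ApoE3 and 9 in ApoE4 (1.35% and 23.0%), with 9 higher and 8 lower at 21 dpi in ApoE3 (20.4% and 16%), and 16 and 6 in ApoE4 (46.2% and 7.49%). A fold of 2 left 0 either way at 7 dpi (0.340% and 0.255%), 0 and 1 at 21 dpi (0.750% and 3.77%), 3 higher and 4 lower over time in ApoE3 (6.10% and 7.25%), and 8 and 2 in ApoE4 (21.3% and 4%).

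Reading the genotypes by column number, chosen after seeing the data, exchanged the counts, to 2 higher in ApoE3 and 4 in ApoE4 at 7 dpi and 19 and 2 at 21 dpi, and turned the medians to -0.0525 and 0.334. No paired analysis was possible because each group has 1 value. FPKM does not give the reads behind a gene, and the precision of members near 1 FPKM was not estimated.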
